A study of Rattus norvegicus with 12 samples.

Results

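The 10 genes described here belong to fatty acid oxidation and the peroxisome proliferator-activated receptor (PPAR) pathway, and are 10 of the 20263 genes in the deposited tables. They were taken by identifier from a list chosen with earlier results of these data known. All are given, whatever their values: PPARGC1A (ENSG00000109819), PPARA (ENSG00000186951), PPARD (ENSG00000112033), CPT1A (ENSG00000110090), PDK4 (ENSG00000004799), ANGPTL4 (ENSG00000167772), PLIN2 (ENSG00000147872), ACADM (ENSG00000117054), ACADVL (ENSG00000072778) and HADHA (ENSG00000084754). RNA was sequenced from 12 cultures labelled H9C2, a cell line established from the heart of rat embryos, whose cells the labels call cardiomyocytes, with 3 biological replicates in each of 4 groups and 48 h of exposure. HG-Res-SIRT7-Inh cells had 100 mM glucose, 5 µM resveratrol and 5 µM of SirReal2, which the labels call specific for SIRT7 and which is generally known as an inhibitor of SIRT2. HG-Res cells had 100 mM glucose and 5 µM resveratrol, HG cells had 100 mM glucose alone, and Ctrl cells had 5.5 mM glucose with no drug. All cells were labelled wild type. The labels describe neither an osmotic control nor a vehicle, and no group had the inhibitor without resveratrol.

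All 20263 identifiers have the prefix of human Ensembl genes, whereas the labels give rat and the rat build rn6. Identifiers with that prefix cannot match rat ones, so their 0 matches in the rat gene table add nothing to this. The tables do not settle which species the transcripts belong to. The 10 symbols are those of the human identifiers. The labelled cell type was not checked against its markers, since no other identifier was paired with a symbol. Levels are in CPM, a gene's reads expressed relative to all reads counted in its library, with no correction for gene length, so libraries can be compared for a given gene, but not genes with each other. The 9 high-glucose libraries held about 30.3 to 33.2 M reads each, so that 1 read was worth about 0.03 CPM. On the first principal component of 12854 expressed genes, which held 56.1% of the variance, HG-Res-SIRT7-Inh replicate 3 (-50.7) and HG replicate 2 (29.7) stood apart from the other 7 libraries, which lay between -17.1 and 14.4. The inhibitor libraries were spread along this component, with HG-Res-SIRT7-Inh replicates 1 and 2 at 1.1 and -17.1.

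PPARs are nuclear receptors that bind fatty acids and their derivatives, pair with retinoid X receptors and switch on genes for the uptake, storage and burning of fat. PGC-1 alpha, the product of PPARGC1A, is a coactivator of PPARs and of other receptors and a driver of mitochondrial gene expression. It is deacetylated by SIRT1, and resveratrol is often used as a sirtuin activator. Cardiac muscle takes much of its energy from fatty acids, which enter mitochondria through the carnitine shuttle and are then shortened by beta-oxidation.

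Resveratrol with the inhibitor went with higher levels of a receptor and of the carnitine shuttle enzyme. PPARA and CPT1A rose in HG-Res-SIRT7-Inh cells against HG-Res cells and also against HG cells, with means 1.41 to 1.67 times as high. Of all genes, 1.88% passed as higher against HG-Res and 4.27% against HG. Neither rise against HG-Res passed without HG-Res replicate 1 or 3, and that of PPARA against HG did not pass without HG replicate 1 or 3. With all 9 libraries in the fit, no member fell past the threshold in any comparison. In that fit 4.19% of all genes passed as lower in HG-Res-SIRT7-Inh against HG-Res and 6.5% against HG. In the same fit resveratrol alone gave no member past the threshold against HG, where 0.708% of all genes passed. That share depends on a spread shared with the inhibitor libraries. In a fit of HG-Res and HG alone 0 members passed, where 4.64% of all genes did. The PPAR target gene PDK4 was at or near 0 in every library, and PLIN2 passed no test, with group means that differed by at most 7.58%. ANGPTL4 was too low for that fit, and its 3 HG-Res libraries (0.38 to 0.7 CPM) were all above its HG libraries (0.09 to 0.21 CPM), without passing in a fit with no filter (limma adjusted p = 0.121).

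**Figure D1:**
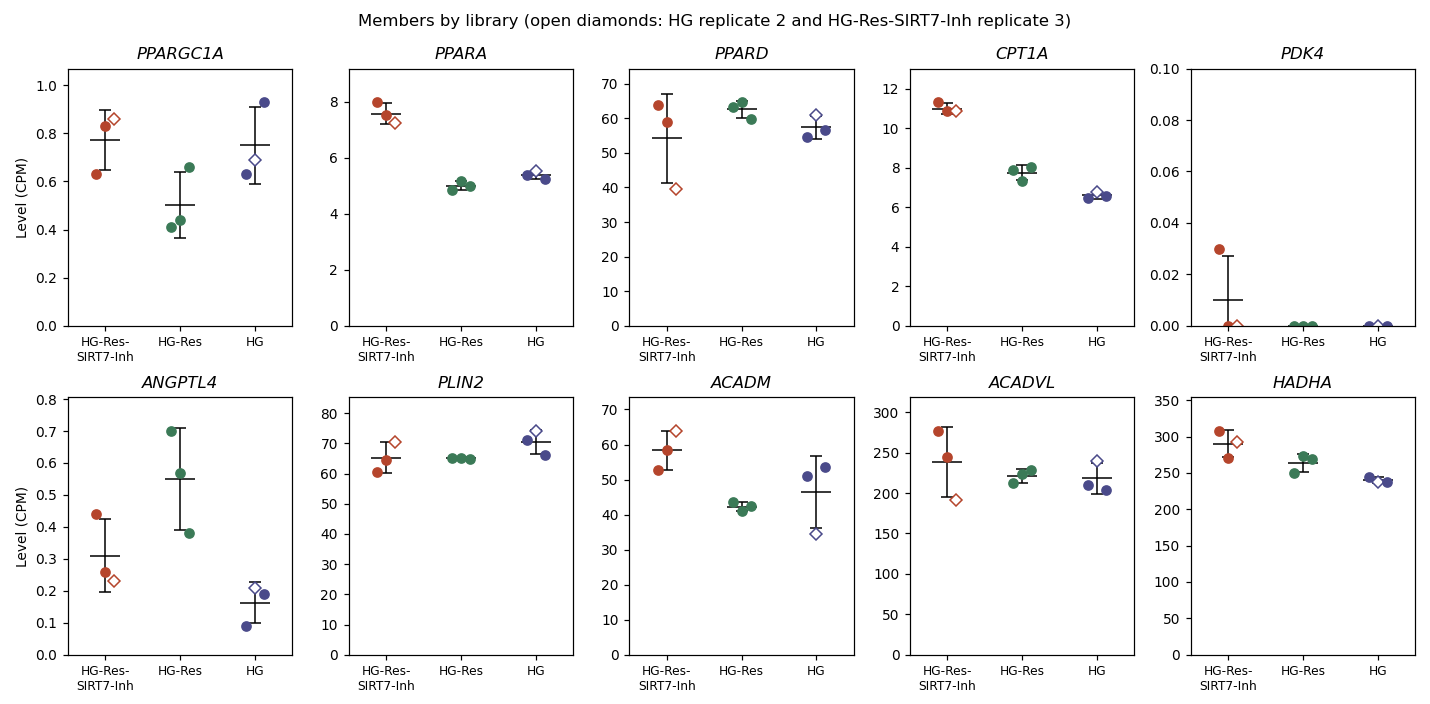
Levels of the 10 members in CPM (linear axes from 0, a different scale in each panel) in the 3 replicates of HG-Res-SIRT7-Inh, HG-Res and HG, with the mean (long bar) and SD (whiskers). CPT1A was between 10.86 and 11.33 CPM in HG-Res-SIRT7-Inh, above all HG-Res and HG libraries, and the open diamonds mark the 2 libraries that stood apart.

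PPARA encodes PPAR alpha, the receptor best known for inducing fatty acid oxidation genes in liver and heart. It was at 7.98, 7.51 and 7.23 CPM in HG-Res-SIRT7-Inh libraries, at 4.83, 5.15 and 4.98 CPM in HG-Res libraries and at 5.38, 5.52 and 5.24 CPM in HG libraries. Every library with the inhibitor was above every library without it. In bulk RNA, more cells that express a gene and more RNA per cell cannot be told apart, here or for any other member. The means were 7.57 ± 0.379, 4.99 ± 0.16 and 5.38 ± 0.14 CPM in HG-Res-SIRT7-Inh, HG-Res and HG (SD, n = 3 each). Values were tested as log2(CPM + 1) with limma over all 12854 genes, with Benjamini-Hochberg adjustment, and the threshold was an adjusted p of 0.05. On that scale, which understates the change of low genes, PPARA rose by 0.52 ± 0.09 against HG-Res (SE, limma adjusted p = 0.00914) and by 0.43 ± 0.09 against HG (limma adjusted p = 0.0155). As ratios of mean CPM these were 1.52 and 1.41. HG-Res was 7.31% below HG, with no overlap of libraries, but the difference of -0.09 ± 0.09 on the log2 scale did not pass (SE, limma adjusted p = 0.805, 95% interval -0.29 to 0.105).

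Whether the rise of PPARA passed depended on the libraries in the fit, although its size changed little. Why it did not pass in some fits was not tested. Against HG-Res, the limma adjusted p was 0.0588 without HG-Res replicate 1 and 0.0538 without HG-Res replicate 3. Against HG, it was 0.0728 and 0.0576 without HG replicates 1 and 3, 0.0571 when HG-Res-SIRT7-Inh replicate 2 was left out, and 0.0938 in a fit of the 2 groups only. Over all 17 alternative fits the log2 change lay between 0.48 and 0.59 against HG-Res and between 0.39 and 0.485 against HG.

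PPARD encodes PPAR delta, a receptor with fatty acid oxidation targets in muscle. It was at 63.96, 58.94 and 39.58 CPM in HG-Res-SIRT7-Inh, at 63.36, 64.69 and 59.8 CPM in HG-Res and at 54.49, 60.96 and 56.7 CPM in HG. Apart from HG-Res-SIRT7-Inh replicate 3, 35.6% below the mean of its fellow replicates, the libraries of the 3 groups overlapped or lay close together. The log2 change was -0.23 ± 0.16 against HG-Res (SE, limma adjusted p = 0.369) and -0.11 ± 0.16 against HG (limma adjusted p = 0.685). Without the 2 libraries that stood apart these became -0.03 ± 0.07 (limma adjusted p = 0.804) and 0.14 ± 0.07 (limma adjusted p = 0.178), so the sign against HG turned. HG-Res against HG gave 0.125 ± 0.16 (limma adjusted p = 0.881), with a spread shared by all 3 groups. In a fit of HG-Res and HG alone it was 0.125 ± 0.07 (limma adjusted p = 0.349). The 95% intervals, -0.60 to 0.13 against HG-Res and -0.48 to 0.26 against HG, each include a fall and a rise.

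The coactivator gene PPARGC1A lay near the filter of 0.5 CPM. It was at 0.63, 0.83 and 0.86 CPM in HG-Res-SIRT7-Inh, at 0.41, 0.44 and 0.66 CPM in HG-Res and at 0.63, 0.69 and 0.93 CPM in HG. The means were 0.773 ± 0.125 CPM in HG-Res-SIRT7-Inh, 0.503 ± 0.137 CPM in HG-Res and 0.75 ± 0.159 CPM in HG (SD, n = 3 each). In each pair of groups the libraries overlapped. These means rest on about 72, 48 and 72 reads in all in HG-Res-SIRT7-Inh, HG-Res and HG. None of the differences passed, with log2 changes of -0.22 ± 0.11 in HG-Res over HG (SE, limma adjusted p = 0.547) and 0.24 ± 0.11 in HG-Res-SIRT7-Inh over HG-Res (limma adjusted p = 0.213). HG-Res-SIRT7-Inh and HG differed by 0.02 ± 0.11 (limma adjusted p = 0.917, 95% interval -0.23 to 0.27), a value whose sign changed with the libraries in the fit. As ratios of mean CPM, HG-Res over HG was 0.671 and HG-Res-SIRT7-Inh over HG-Res was 1.54, so the log2(CPM + 1) scale understated the difference at this level. With a pseudocount of 0.1 the log2 changes were -0.50 ± 0.24 (SE, limma adjusted p = 0.521) and 0.55 ± 0.24 (limma adjusted p = 0.201), and neither passed.

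CPT1A encodes the liver-type carnitine palmitoyltransferase of the outer mitochondrial membrane, the controlled entry step of long-chain fatty acids and a known PPAR target. Its levels were 11.33, 10.88 and 10.86 CPM in HG-Res-SIRT7-Inh, 7.89, 7.34 and 8.05 CPM in HG-Res and 6.45, 6.78 and 6.56 CPM in HG. The 3 groups did not overlap, and HG-Res lay between the other two. The means were 11.0 ± 0.266, 7.76 ± 0.372 and 6.60 ± 0.168 CPM (SD, n = 3 each). Against HG, CPT1A in HG-Res-SIRT7-Inh rose by 0.66 ± 0.09 on the log2 scale (SE, 95% interval 0.47 to 0.86, limma adjusted p = 0.00176), 1.67 times in mean CPM and rank 178 of 12854 genes by p. Against HG-Res it rose by 0.46 ± 0.09 (limma adjusted p = 0.0165), 1.42 times in mean CPM.

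HG-Res exceeded HG in CPT1A by 0.205 ± 0.09 (SE, 95% interval 0.01 to 0.40), which did not pass after adjustment over all genes (limma adjusted p = 0.444, unadjusted p = 0.0432). The authors' deposited table likewise gave this step a p-value of 0.0245 and a q-value of 0.157. The rise against HG passed in all 17 alternative fits, with limma adjusted p between 0.000594 and 0.023. The rise against HG-Res did not pass when HG-Res-SIRT7-Inh replicate 2 was left out (limma adjusted p = 0.0617), without HG-Res replicate 1, 2 or 3 (limma adjusted p = 0.0754, 0.103 and 0.0684), or in a fit of the 2 groups only (limma adjusted p = 0.0622). Its log2 change stayed between 0.42 and 0.50 over those 17 fits.

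The 2 genes most like CPT1A over the 9 libraries, by Pearson correlation of log2(CPM + 1), were ENSG00000078804 and ENSG00000145882, both with r = 0.986. ENSG00000078804 averaged 59 ± 3.43, 36.5 ± 0.838 and 31.4 ± 0.876 CPM in HG-Res-SIRT7-Inh, HG-Res and HG (SD, n = 3 each), the same order of groups as CPT1A. The likeness rests on the 3 group levels and is given as a description, and neither identifier was paired with a symbol.

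ACADM, ACADVL and HADHA act in the mitochondrial matrix or inner membrane. ACADM encodes medium-chain acyl-CoA dehydrogenase, which carries out the opening step of each cycle of beta-oxidation for medium-chain substrates. It was at 52.63, 58.5 and 63.85 CPM in HG-Res-SIRT7-Inh, at 43.58, 41.11 and 42.31 CPM in HG-Res and at 50.93, 34.58 and 53.55 CPM in HG. All HG-Res-SIRT7-Inh libraries were above all HG-Res libraries, while HG, with its low replicate 2, spanned the HG-Res range. The mean with the inhibitor was 1.38 times that of HG-Res, and the log2 change of 0.45 ± 0.16 did not pass (SE, limma adjusted p = 0.131, unadjusted p = 0.0194). The authors' deposited table gave ACADM a q-value of 0.0409 in this comparison, without a mark.

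HG replicate 2, the HG library that stood apart, was 33.8% below its fellow HG replicates in ACADM. Without it, HG-Res-SIRT7-Inh against HG-Res passed at the same log2 change (0.45 ± 0.11, SE, limma adjusted p = 0.0388), since that library enters only through the shared spread. Without both libraries that stood apart, the change was 0.38 ± 0.07 (limma adjusted p = 0.00652). HG-Res against HG was -0.10 ± 0.16 with all libraries (limma adjusted p = 0.908) and -0.30 ± 0.07 without both (limma adjusted p = 0.0202), the only member to pass in that comparison under any setting. HG-Res-SIRT7-Inh against HG did not pass with all libraries (0.35 ± 0.16, limma adjusted p = 0.193), without HG replicate 2 (0.15 ± 0.12, limma adjusted p = 0.524) or without both (0.09 ± 0.08, limma adjusted p = 0.43).

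ACADVL encodes the very-long-chain acyl-CoA dehydrogenase of the inner membrane. It was at 276.7, 245.06 and 191.14 CPM in HG-Res-SIRT7-Inh, at 211.97, 223.55 and 228.94 CPM in HG-Res and at 210.02, 239.76 and 204.28 CPM in HG. The 3 libraries with the inhibitor held both the highest and the lowest value, and the lowest was again replicate 3, 26.7% below its fellow replicates. The log2 change was 0.09 ± 0.14 against HG-Res (SE, limma adjusted p = 0.69) and 0.11 ± 0.14 against HG (limma adjusted p = 0.62). Without both libraries that stood apart it passed, with 0.23 ± 0.07 against HG-Res (limma adjusted p = 0.0438) and 0.33 ± 0.075 against HG (limma adjusted p = 0.0105). HG-Res against HG gave 0.03 ± 0.14 (limma adjusted p = 0.986), and 0.03 ± 0.08 in a fit of those 2 groups alone (limma adjusted p = 0.897).

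HADHA encodes the alpha subunit of the mitochondrial trifunctional protein, which performs later steps of the cycle on long-chain substrates. It was at 307.54, 270.36 and 292.53 CPM in HG-Res-SIRT7-Inh, at 249.92, 273.63 and 268.96 CPM in HG-Res and at 244.32, 237.62 and 237.29 CPM in HG. Libraries with both compounds and libraries with resveratrol were all above the HG libraries, and overlapped each other. HG-Res-SIRT7-Inh exceeded HG by 0.27 ± 0.09 (SE, 95% interval 0.07 to 0.47), short of the threshold (limma adjusted p = 0.0838). It passed when HG-Res-SIRT7-Inh replicate 3 was left out (0.265 ± 0.075, limma adjusted p = 0.0397) and without both libraries that stood apart (0.26 ± 0.08, limma adjusted p = 0.034). The other comparisons gave 0.14 ± 0.09 in HG-Res over HG (limma adjusted p = 0.672) and 0.13 ± 0.09 in HG-Res-SIRT7-Inh over HG-Res (limma adjusted p = 0.352).

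The remaining members are classical PPAR target genes outside the oxidation cycle. PLIN2 encodes perilipin 2, a coat protein of lipid droplets. It was at 60.42, 64.47 and 70.58 CPM in HG-Res-SIRT7-Inh, at 65.21, 65.33 and 64.69 CPM in HG-Res and at 71.05, 74.11 and 66.09 CPM in HG. HG-Res libraries agreed within an SD of 0.34 CPM and all lay below the HG libraries, while HG-Res-SIRT7-Inh spanned the range of HG-Res and part of that of HG. The log2 changes were -0.11 ± 0.10 in HG-Res over HG (SE, limma adjusted p = 0.787), -0.001 ± 0.10 in HG-Res-SIRT7-Inh over HG-Res (limma adjusted p = 0.994, 95% interval -0.22 to 0.22) and -0.11 ± 0.10 in HG-Res-SIRT7-Inh over HG (limma adjusted p = 0.478).

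ANGPTL4 encodes angiopoietin-like 4, a secreted inhibitor of lipoprotein lipase. It was at 0.44, 0.26 and 0.23 CPM in HG-Res-SIRT7-Inh, at 0.7, 0.57 and 0.38 CPM in HG-Res and at 0.09, 0.21 and 0.19 CPM in HG. Libraries with resveratrol were all above the HG libraries, and those with both compounds lay between, overlapping HG-Res. The group totals were about 29, 52 and 16 reads in HG-Res-SIRT7-Inh, HG-Res and HG. It reached 0.5 CPM in 2 libraries, both HG-Res, and so was left out of the main test, which needed 3. In a fit with no filter, HG-Res exceeded HG by 0.41 ± 0.09 on the log2 scale (SE, limma adjusted p = 0.121, unadjusted p = 0.00131). The authors' deposited table marked it up in that comparison, with a log2 fold change of 1.71, a p-value of 0.00625 and a q-value of 1, where 1.23% of all listed genes carried that mark. In the same unfiltered fit HG-Res-SIRT7-Inh against HG-Res gave -0.24 ± 0.09 (limma adjusted p = 0.169) and HG-Res-SIRT7-Inh against HG gave 0.17 ± 0.09 (limma adjusted p = 0.282).

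PDK4 encodes the pyruvate dehydrogenase kinase that shuts glucose carbon out of the citric acid cycle when fat is burned, and is strongly PPAR-dependent in heart. It was at 0.03 CPM, about 1 read, in HG-Res-SIRT7-Inh replicate 1 and listed at 0 in the other 8 libraries. A count of 0 still allows up to 3 reads, or 0.09 to 0.099 CPM depending on the library, so a difference between groups was not detectable at this depth. That limit covers counting error only.

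**Figure D2:**
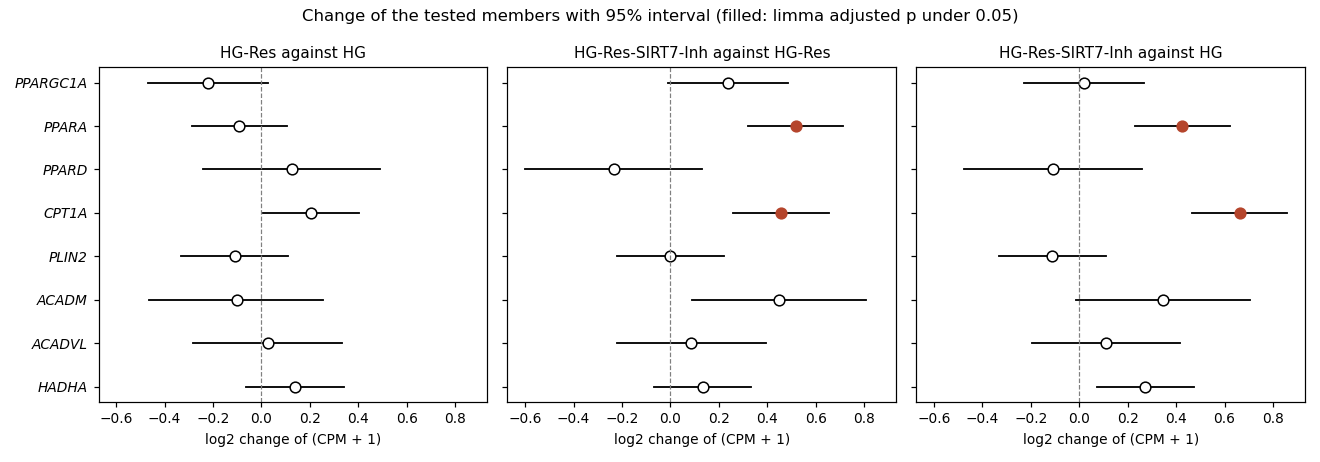
Log2 change of (CPM + 1) for the 8 tested members (points) with the 95% interval (lines) in each comparison, filled where the limma adjusted p was under 0.05. PPARA (0.52 and 0.43) and CPT1A (0.46 and 0.66) are filled in the 2 comparisons of HG-Res-SIRT7-Inh. No member is filled for HG-Res against HG, where 0.708% of all genes passed.

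Over all members, 8 of 10 reached 0.5 CPM in 3 or more of the 9 libraries and were tested. For HG-Res against HG, 0 of 8 passed in limma, where 0.708% of all genes did. At an unadjusted p under 0.05 the count was 1 (CPT1A), where 10.7% of all genes were, and by the authors' deposited q-values it was 0, where 5.38% of all genes were called. Among the 8, libraries did not overlap in 2 members that were higher (CPT1A and HADHA) and 2 that were lower (PPARA and PLIN2) in HG-Res, where 15% and 14.8% of all genes were higher and lower without overlap. ANGPTL4, not tested, was also higher in all HG-Res libraries, with a mean 3.37 times that of HG. The median log2 change of the 8 was -0.03, against -0.001 over all genes.

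In HG-Res-SIRT7-Inh over HG-Res, 2 of 8 members passed in limma and both were higher, where 1.88% of all genes passed as higher and 4.19% as lower. The authors' deposited q-values were under 0.05 for 3 members (PPARA, CPT1A and ACADM), where they were for 5.65% of all genes. None of these 3 carried the authors' mark. Libraries did not overlap in 3 members that were higher (PPARA, CPT1A and ACADM), where 17.7% of all genes were. The median log2 change of the 8 was 0.19, with a range from -0.23 to 0.52, against 0.04 over all genes.

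In HG-Res-SIRT7-Inh over HG, the same 2 of 8 passed, both higher, where 4.27% of all genes passed as higher and 6.5% as lower. The authors' deposited q-values called PPARA and CPT1A as well, where they called 5.2% of all genes. Libraries did not overlap in 3 tested members that were higher (PPARA, CPT1A and HADHA), where 12.8% of all genes were. The authors' deposited table marked CPT1A up, with a log2 fold change of 0.727 and a q-value of 0.000231, where 4.39% of all listed genes carried that mark. PPARA carried no mark. The median log2 change of the 8 was 0.19, from -0.11 to 0.66, against 0.04 over all genes. The 3 comparisons share groups, so their values are not independent.

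The number of members past the threshold moved with the libraries in the fit. Without both libraries that stood apart it was 1 (ACADM, lower) in HG-Res over HG, where 10.1% of all genes passed as lower. It was 4, all higher (PPARA, CPT1A, ACADM and ACADVL), in HG-Res-SIRT7-Inh over HG-Res, where 9.65% of all genes passed as higher. It was also 4, all higher (PPARA, CPT1A, ACADVL and HADHA), in HG-Res-SIRT7-Inh over HG, where 16.7% of all genes did. Those 2 libraries were removed because they stood apart, so these are not independent counts, and the share of all genes that passed grew with them. In HG-Res-SIRT7-Inh over HG-Res the count was 0 without HG-Res replicate 1 or 3, where 2.11% and 2.13% of all genes passed in either direction.

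**Figure D3:**
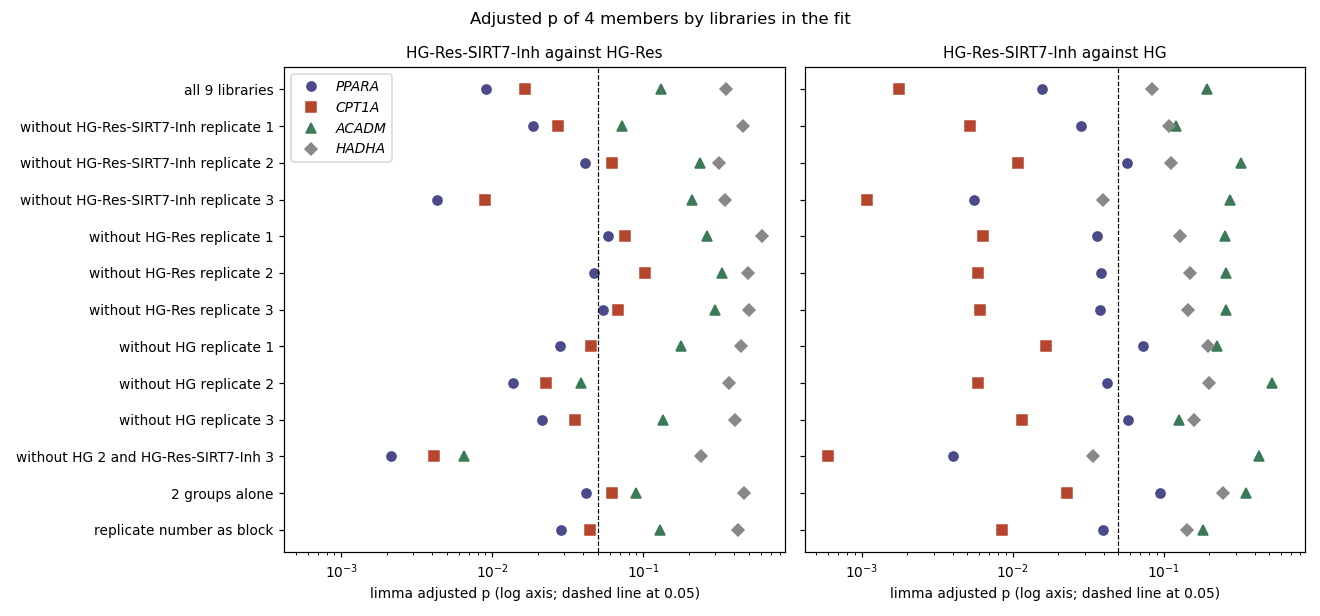
Limma adjusted p (log axis, dashed line at 0.05) of PPARA, CPT1A, ACADM and HADHA with all 9 libraries, without each library in turn and in 3 other fits, in HG-Res-SIRT7-Inh over HG-Res (left) and over HG (right). CPT1A against HG lies left of the line in every row, while against HG-Res it lies right of it in 5 rows, up to 0.103.

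The effect of high glucose itself was not analysed here for these genes. The deposited table of HG against Ctrl lists 354 genes marked by the authors, which is 1.75% of the genes in the full tables, and 0 of the 10 members were among them. No Ctrl level of a member was therefore analysed here, and whether the levels in HG-Res or HG-Res-SIRT7-Inh lie nearer to Ctrl than HG does was not tested.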

How the data were processed

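Poly(A)-selected RNA was sequenced as paired-end reads, per the labels' protocols. Reads were handled with Trimmomatic and the build was rn6, per the submitters' processing notes. Neither the aligner, the counter nor the authors' test is given in the sources used here. The deposited tables hold values per library headed TPM, with the authors' log2 fold change, p-value and q-value. The deposited values behave as CPM: in each library, 99.6% to 100% of low values were multiples of 1 step within the rounding of 0.005, the same step for every gene. Whole reads were not recovered from these rounded values, so read numbers are approximate and no count model was used.

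The 12854 genes (of 20263) that reached 0.5 CPM in 3 or more of the 9 high-glucose libraries were fitted as log2(CPM + 1) with limma 3.58.1 (R 4.3.3), using 1 fit with group means and an intensity trend. Benjamini-Hochberg adjustment ran over all genes tested. The fit was also run on simulated data, with the same spread in every group and no library that stood apart. Those data differ from the real ones in both respects, so that run cannot speak for the calls made here. P-values measure the spread between samples labelled biological replicates. Every replicate pair differed by more than sampling noise. The members and lists were chosen with earlier results of these data known. All members are named. Gene lists for other pathway genes and cell type markers were not used, since their symbols could not be matched to identifiers. The naming rule asked for the 5 genes most like a member, and 2 are printed for the same reason. Rat promoter sequences were not used, because the identifiers are human.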

Additional observations from a re-analysis of the deposited data

How the results depend on the processing

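Each of the 24 log2 changes was recomputed in 17 alternative fits (16 for PPARGC1A, which does not reach a filter of 1 CPM) and set beside the authors' deposited fold change and q-value. The 4 that passed kept their direction in all of them, and 11 of their 68 refitted values no longer passed. The authors' deposited q-values were under 0.05 for all 4. Their mark was up only for CPT1A in HG-Res-SIRT7-Inh over HG, and the others carried no mark. Scaling by median of ratios, no filter, a filter at 1 CPM, a pseudocount of 0.1, a single prior variance and the replicate block changed no call: with the replicate number as a block the members past the threshold were 0, 2 and 2, as without it. No pairing by the shared numbers was evident. The deviations of same-numbered replicates correlated between -0.55 and 0.64, over 0.1 in 4 of 9 pairs, and differently numbered ones up to 0.78. Deviations within a group sum to 0, so this check cannot exclude pairing. In a fit of the 2 groups alone the count was 0 in HG-Res over HG, where 4.64% of all genes passed, against 0.708% in the main fit. It was 1 (PPARA) in HG-Res-SIRT7-Inh over HG-Res and 1 (CPT1A) in HG-Res-SIRT7-Inh over HG, where 3.22% and 3.27% of all genes passed. Without both libraries that stood apart the 3 counts were 1, 4 and 4, where 21.5%, 18.9% and 31.2% of all genes passed in either direction. Leaving out 1 library gave 0 to 0, 0 to 3 and 1 to 3 members, where 0.148% to 6.24%, 2.11% to 13.8% and 4.24% to 21% of all genes passed. The cause was not tested. Some changes that did not pass turned sign when 1 library was left out. In HG-Res over HG, ACADM ranged from -0.297 to 0.011 and ACADVL from -0.02 to 0.095. In HG-Res-SIRT7-Inh over HG-Res, PLIN2 ranged from -0.059 to 0.051 and ACADVL from -0.032 to 0.233. In HG-Res-SIRT7-Inh over HG, PPARGC1A ranged from -0.029 to 0.093, PPARD from -0.242 to 0.097 and ACADVL from -0.007 to 0.259. In that comparison PPARGC1A was at -0.038 and PPARD at 0.141 without both libraries that stood apart. TMM scaling and a count model, planned beforehand, were not run, since both need counts. Every fit, the main one included, used 1 spread per gene shared by all groups in it, also where a group was left with 2 libraries.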
